A study of Mus musculus with 6 samples.

Results

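Oxidative phosphorylation subunits are the nuclear-encoded proteins of respiratory complexes I to IV and of the ATP synthase, complex V. They were taken as every gene whose single annotated symbol starts with Nduf and a subunit letter and number, is Sdha, Sdhb, Sdhc or Sdhd, or starts with Uqcr, Cox4 to Cox8 or Atp5. The rule found 81 genes of the 18193 measured, on 164 probe sets, 147 on the Affymetrix chip MOE430A and 17 on MOE430B. By symbol, 35 genes belonged to complex I, 4 to complex II, 8 to complex III, 17 to complex IV and 17 to complex V. Ndufa4 and Ndufa4l2 were counted by name with complex I, although the NDUFA4 protein is known as a subunit of complex IV.

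The samples were myospheres, floating clusters grown from cells of the hind-leg muscle of male Balb/c mice, sorted for the surface antigen Sca1. The cells had spent 4 days in a neural stem cell medium (neurocult with bf6f, LIF, B27 and EGF, as the labels spell them) and were at passage 1, and RNA came from 2000000 cells in 5 µL. All 6 arrays belong to this 1 group, with replicates 1, 2 and 3 on each chip and no second condition. The labels give 1 submitter sample number to all arrays and do not say whether replicates were separate cultures, so the spread between them may be technical.

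Complexes I and II pass electrons from NADH and succinate to ubiquinone, complex III passes them on to cytochrome c, and complex IV hands them to oxygen. Complexes I, III and IV pump protons as they do so, and complex V lets the protons back and makes ATP. Several subunits of complex IV exist as isoforms encoded by different genes, with forms typical of heart and skeletal muscle, of testis, or of lung and low oxygen, and most other tissues use the remaining form.

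Signals were read against a limit on each array, the 95th percentile of probe sets for genes of unrelated tissues such as odorant receptors. It lay at 784 to 822 on the MOE430A arrays and at 2542 to 3237 on the MOE430B arrays, whose scale differs, so a signal was judged by its own chip's limit alone. The signal ratio of the 3' to the 5' Gapdh control, a measure of RNA or labelling quality, was 11.9 to 16.5. The 3' signal was thus far above the 5' signal on every array. The part of this in sets under the limit, or in disagreement between sets of 1 gene, was not tested. Of markers fixed for cell types, 5 of 5 for fibroblasts were above the limit, 1 of 10 for myofibres (Atp2a1), 0 of 4 for heart, 0 of 4 for satellite cells and myoblasts, 0 of 4 for adipocytes, 2 of 4 for macrophages, 1 of 3 for endothelium and 0 of 6 for testis germ cells. Beside these counts, 36.2% of all measured genes were above the limit, and 45.5% of those with a MOE430A probe set. In bulk RNA, fewer cells of a type and less RNA per cell cannot be told apart. Probe sets differ in affinity, so a signal here says how far a probe set lay from the limit and does not rank genes by abundance.

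Most oxidative phosphorylation genes gave signals well above the limit in the myospheres. At least 1 probe set exceeded the limit on all 3 arrays of its chip for 68 of 81 genes, 84%, beside 36.2% of all measured genes. Among member probe sets, 115 of 147 passed on MOE430A, 78.2% beside 35.1% of all probe sets on that chip, and 3 of 17 passed on MOE430B, 17.6% beside 10.1%. Complex II had 4 of 4 genes above the limit, complex I 32 of 35, complex V 15 of 17, complex III 7 of 8 and complex IV 10 of 17. The low count of complex IV came from tissue forms: without the 8 forms of muscle, testis, lung or low oxygen, 1 of them in complex I, complex IV had 9 of 10 genes above the limit and complex I 32 of 34.

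The number of probe sets per gene and the chip bear on such counts. Of members with 1 probe set, 24 of 33 were above the limit, 72.7% beside 22.1% of all genes with 1. With 2 probe sets the members came to 23 of 26, 88.5% beside 42.4%, and with 3 or more to 21 of 22, 95.5% beside 59.1%. Members with a probe set on MOE430A came to 68 of 78, 87.2% beside 45.5% of all such genes, and the 3 members on MOE430B alone (Ndufb4, Ndufa4l2 and Cox7b2) were not above the limit. Each gene was then represented by its leading probe set, the one farthest above its limit on average. The leading probe sets of the members had a median log2 signal of 2.67 over the limit, 6.36 times the limit, beside -0.42 for all genes and 0.05 for genes with a MOE430A probe set. By complex the median log2 signal over the limit was 2.52 for I, 2.17 for II, 2.37 for III, 3.31 for IV and 3.62 for V.

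**Figure D1:**
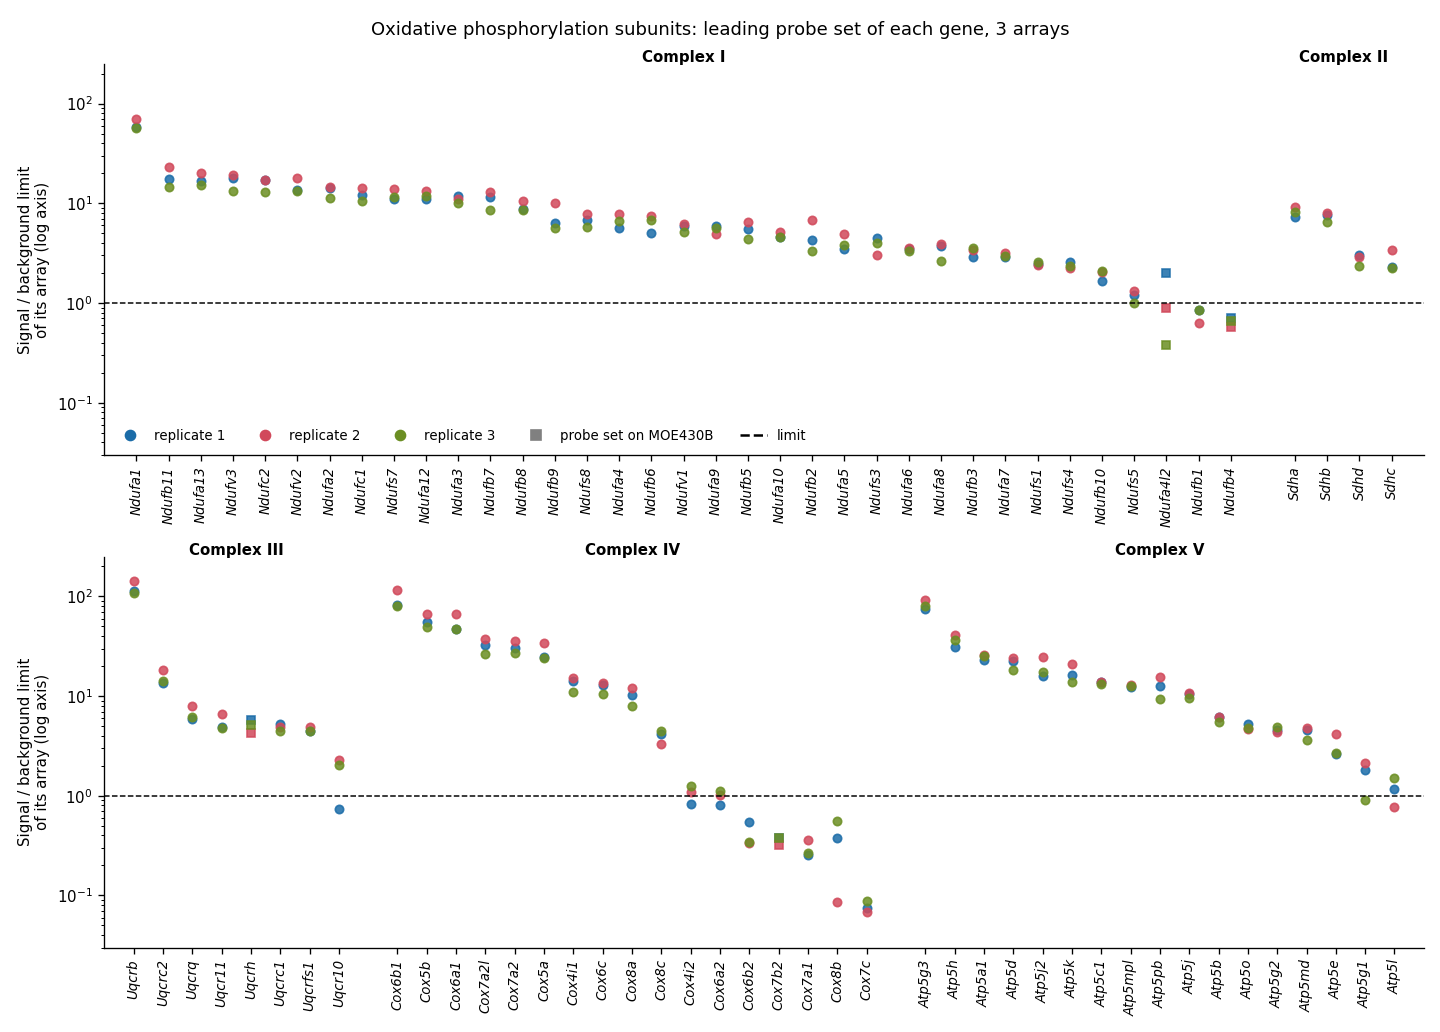
Signal of the leading probe set of each of the 81 genes divided by the limit of its array (log axis), by complex, with 1 point for each of 3 arrays; circles are MOE430A, squares MOE430B, and the dashed line is the limit. Complex II lies above the line throughout, and the genes under it in complex IV are Cox7c, the tissue forms Cox8b, Cox7a1, Cox7b2 and Cox6b2 on all arrays, and Cox6a2 and Cox4i2 on 1 array; the order along the axis is not an order of abundance.

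What member genes share beyond their names was looked for in their promoters. RefSeq windows of GRCm38.p6, 250 bases before and 50 after the start of transcription, were at hand for 66 member genes, in 71 windows. The core of the site of NRF1, a factor known for binding promoters of respiratory chain genes, was searched as GCATGCGC on both strands and was found in 9 windows, 12.7%, beside 2.71% of all 32851 windows. It is shown because it was the motif found most often before the start: it lay before the start in 7 of the 9, across it in Uqcr11 and after it in Uqcrc1. The stretches of 30 bases below run 5′ to 3′ on the gene's strand, with the match in capitals, which covers 10 bases where the letters matched on both strands in overlap, as in 4 genes. In the order printed they lie at chr15:102671070-102671099, chr5:108434430-108434459, chr9:44920963-44920992, chr5:115349101-115349130, chr15:82354356-82354385, chr2:36049328-36049357, chr4:140961206-140961235, chr10:80406807-80406836, chr9:108936668-108936697, on the plus strand for Sdhb and Uqcrc1 and on the minus strand for the other genes.
Atp5g2: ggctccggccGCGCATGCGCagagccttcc
Atp5k: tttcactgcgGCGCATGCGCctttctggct
Atp5l: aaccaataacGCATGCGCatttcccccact
Cox6a1: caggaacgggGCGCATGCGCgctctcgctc
Ndufa6: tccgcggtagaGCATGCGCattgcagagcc
Ndufa8: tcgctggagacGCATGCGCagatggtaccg
Sdhb: aagcccagtggGCATGCGCcctacgggccg
Uqcr11: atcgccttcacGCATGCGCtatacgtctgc
Uqcrc1: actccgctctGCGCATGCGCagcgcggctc

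The first 4 genes code for c-ring and other membrane subunits of complex V and for the liver-type form of subunit VIa of complex IV, and the others for complexes I, II and III. Of these 9 genes, 8 were above the limit, near the share of all members (68 of 81, 84%), beside 36.2% of all measured genes. Atp5l was above it on 2 of 3 arrays. A match is a description of letters and not a site in use, and no binding was measured here.

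The letters AAGATGGC, the core of the YY1 site, were found on either strand in 9 windows, 12.7% beside 2.75% of all windows. They contain the letters ATG, and whether these were the start codon of a gene was not tested. In 7 of the 9 windows the match lay after the start of transcription. The 4 stretches here show a match before the start, in Atp5j, and after it, in Atp5j2, Ndufa9 and Ndufs7, at chr16:84835046-84835075, chr5:145191500-145191529, chr6:126849097-126849126, chr10:80249462-80249491, with Ndufs7 on the plus strand.
Atp5j: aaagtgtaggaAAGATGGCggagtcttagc
Atp5j2: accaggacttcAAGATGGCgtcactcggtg
Ndufa9: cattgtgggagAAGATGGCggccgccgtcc
Ndufs7: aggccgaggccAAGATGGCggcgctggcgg

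Of the other motifs, the ETS and GABP core CCGGAAGT was in 5 member windows (7.04% beside 3.89%) and the ERR core TCAAGGTCA in those of Atp5g3 and Sdhd (2.82% beside 0.423%). The MEF2 letters CTAAAAATA, of a muscle factor, were in 0 of 71, beside 0.517% of all windows. At least 1 of the 5 motifs was in 33.8% of member windows and 9.75% of all windows. Of the 24 genes concerned 23 were above the limit, beside 68 of all 81 members (84%) and 36.2% of all measured genes. A link between motif and signal was not tested.

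Complex I takes electrons from NADH. Its measured catalytic core subunits were above the limit in 6 of 6 cases. Ndufv1, which binds NADH and the flavin, gave signals of 4821, 4857 and 4228 in replicates 1, 2 and 3, and Ndufv2, an iron-sulfur protein beside it, gave 11017, 14230 and 10905. Ndufs1, which carries iron-sulfur clusters of the same arm, gave 2011, 1883 and 2108. In these leading sets replicate 2 was the highest for Ndufv1 and Ndufv2 and the lowest for Ndufs1. Ndufv2 had the widest spread of them, with a coefficient of variation of 15.7%. Another Ndufv1 set above the limit was lowest in replicate 2, whereas the remaining sets of Ndufv1 and Ndufv2 were highest there. Nearer to the ubiquinone site, Ndufs3 gave 3652, 2388 and 3302, with replicate 2 the lowest. Ndufs7, which holds the last iron-sulfur cluster, gave 9073, 11029 and 9498, and Ndufs8 gave 5519, 6071 and 4786, both highest in replicate 2. This order is that of the leading sets. The other Ndufs7 set was highest in replicate 1, and further Ndufs8 sets above the limit were highest in replicate 1, 2 or 3. The lowest array of each leading set was at no less than 2.40 times the limit, with 2001 ± 113 (SD, n = 3) for Ndufs1 and 12051 ± 1888 for Ndufv2.

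The accessory subunits of complex I surround the core and are needed to assemble and hold it. Of 28 measured without the tissue form Ndufa4l2, 26 were above the limit. Ndufa1, a small membrane subunit, gave 48280, 54924 and 46786, no less than 56.9 times the limit. Ndufs5 gave 994, 1030 and 824, and its lowest array was at 1.00 times the limit, so this call was lost with a stricter limit. Ndufb1 gave 705, 491 and 697, under the limit on all arrays, and Ndufb4 gave 2289, 1692 and 1693 on MOE430B, also under. These last 4 genes had 1 single-gene probe set each.

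Ndufa4 and Ndufa4l2 are a pair of related genes, the latter known as induced by low oxygen. Ndufa4 gave 4641, 6079 and 5406 on MOE430A, well above the limit on all arrays. Ndufa4l2 gave 6446, 2622 and 959 on MOE430B, which was 1.99, 0.895 and 0.377 times the limit of each array. Its replicates were thus far apart and 1 of 3, replicate 1, was above. The MOE430B array of replicate 1 came from a chip lot of its own, and the part of the lot in this difference was not tested.

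Complex II, succinate dehydrogenase, belongs to both the citrate cycle and the respiratory chain, and is encoded by nuclear genes throughout. Its flavoprotein Sdha gave 5980, 7195 and 6728, and its iron-sulfur subunit Sdhb 6273, 6267 and 5301. The membrane anchors, which bind ubiquinone and haem, gave 1876, 2695 and 1831 for Sdhc and 2505, 2275 and 1952 for Sdhd. By these leading sets each array of each of the 4 genes was above the limit. The lowest arrays ran from 2.23 times the limit for Sdhc to 7.30 times for Sdha. All 7 MOE430A probe sets of the complex were above the limit, though the other sets of Sdhc and Sdhd fell to 1.07 and 1.02 times it. The 2 further probe sets of Sdha on MOE430B stayed at no more than 0.212 of theirs.

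Complex III moves electrons from ubiquinol to cytochrome c. The core proteins Uqcrc1 and Uqcrc2 gave 4314, 3797 and 3701, and 10958, 14329 and 11652. The Rieske iron-sulfur protein Uqcrfs1 gave 3677, 3856 and 3661, with its arrays close together (3731 ± 109, SD, n = 3). By these leading sets all 3 genes were at no less than 4.46 times the limit on every array, and the other Uqcrc2 set at no less than 4.10 times. Uqcrb, which helps to form the ubiquinone pocket, gave 93677, 112740 and 89330 by 1 probe set, no less than 109 times the limit. Its other probe set gave 2207, 3075 and 3709, also above the limit on all arrays, at 2.69 to 4.51 times it. Uqcrh, the hinge protein, was above the limit on both chips, with 3349, 2813 and 2959 on MOE430A and 18557, 12470 and 13119 on MOE430B. Uqcr10, a small subunit, gave 610, 1781 and 1672 by its leading set and was above the limit in replicates 2 and 3 and under it in replicate 1, and its other 2 sets were under the limit on at least 2 arrays.

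In complex IV the muscle forms did not pass the limit on all arrays, whereas the general forms did. The heart and skeletal muscle forms Cox6a2, Cox7a1 and Cox8b were above the limit in 0 of 3 cases, and the forms of other tissues paired with them, Cox6a1, Cox7a2 and Cox8a, in 3 of 3. Cox6a1 gave 38566, 52316 and 38825, and Cox6a2 gave 666, 796 and 921 on MOE430A and 387, 447 and 424 on MOE430B. On MOE430A Cox6a2 thus lay close to the limit, at 0.813, 1.02 and 1.12 times it, and on MOE430B at no more than 0.167. Cox7a2 gave 25045, 27694 and 22016, whereas Cox7a1 gave 208, 280 and 217, no more than 0.357 of the limit on each array. Cox8a gave 8399, 9389 and 6508, and Cox8b gave 307, 68 and 461, under the limit on each array and widely spread. Forms were set against the limit and not against each other, since their probe sets are different. Myofibre markers were also low, with 1 of 10 above the limit, a summed signal of 4810 to 6164 over the 10 genes on MOE430A, none listed at 0, and myoglobin (Mb) under the limit on all arrays. Their part in the muscle forms' low signals was not tested.

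To show the regulatory sequence next to these values, the 250 bases before the start are printed for Cox6a1 (chr5:115348959-115349208, minus strand), Cox7a1 (chr7:30183921-30184170, plus strand) and Cox8b (chr7:140900447-140900696, minus strand), from RefSeq in GRCm38.p6. The capitals in Cox6a1 mark the NRF1 letters, which lie 162 to 153 bases before the start. None of the 5 motifs was found in the other windows, which says only that these letters are not there. The window of the general form Cox8a, not printed, held the ETS and GABP letters and not those of NRF1. Only 33.8% of member windows held any of the 5 motifs, so the 3 sequences do not set general forms apart from muscle forms.
Cox6a1: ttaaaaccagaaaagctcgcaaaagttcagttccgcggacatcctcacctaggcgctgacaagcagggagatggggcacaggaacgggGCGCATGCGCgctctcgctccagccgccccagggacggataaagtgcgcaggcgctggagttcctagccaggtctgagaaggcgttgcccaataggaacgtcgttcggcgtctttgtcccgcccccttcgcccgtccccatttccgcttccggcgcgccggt
Cox7a1: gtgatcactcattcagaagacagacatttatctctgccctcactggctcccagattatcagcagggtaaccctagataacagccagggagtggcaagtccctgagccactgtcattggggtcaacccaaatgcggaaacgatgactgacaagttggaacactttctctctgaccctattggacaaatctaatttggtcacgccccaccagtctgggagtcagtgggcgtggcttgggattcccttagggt
Cox8b: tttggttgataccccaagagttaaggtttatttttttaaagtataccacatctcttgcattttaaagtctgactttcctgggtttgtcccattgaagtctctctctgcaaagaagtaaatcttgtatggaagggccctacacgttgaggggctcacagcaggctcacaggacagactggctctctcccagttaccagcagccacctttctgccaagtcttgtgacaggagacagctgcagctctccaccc

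Cox4i1, the general form of subunit IV, gave 11596, 12030 and 8963, all above the limit. Cox4i2, its form in lung and under low oxygen, gave 684, 849 and 1032, or 0.835, 1.08 and 1.26 times the limit, so 2 of 3 arrays were above. Cox7a2l, a relative of Cox7a2 known to link complexes III and IV, gave 26542, 29190 and 21696, all far above the limit.

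Of the testis forms, Cox6b2 gave 451, 265 and 286 and Cox7b2 gave 1215, 946 and 954 on MOE430B, both under their limits on all arrays. The general form Cox6b1 gave 67777, 90899 and 66386, and Cox7b was not analysed here. Cox8c, the testis form of subunit VIII, was the exception among the 8 tissue forms: it gave 3428, 2595 and 3631 on MOE430A, 3.31 to 4.42 times the limit. On MOE430B another Cox8c probe set, with an ID ending in _x_at, gave 6644, 10567 and 1946, under its limit in replicate 3. The chips thus put replicate 2 at opposite ends, lowest on MOE430A and highest on MOE430B. Testis germ cell markers were 0 of 6 above the limit, with a summed signal of 803.9 to 1133 and no gene at more than 0.697 of the limit on any array, and 4 of the 6 (Prm1, Prm2, Tnp1 and Tnp2) also served to set the limit.

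**Figure D2:**
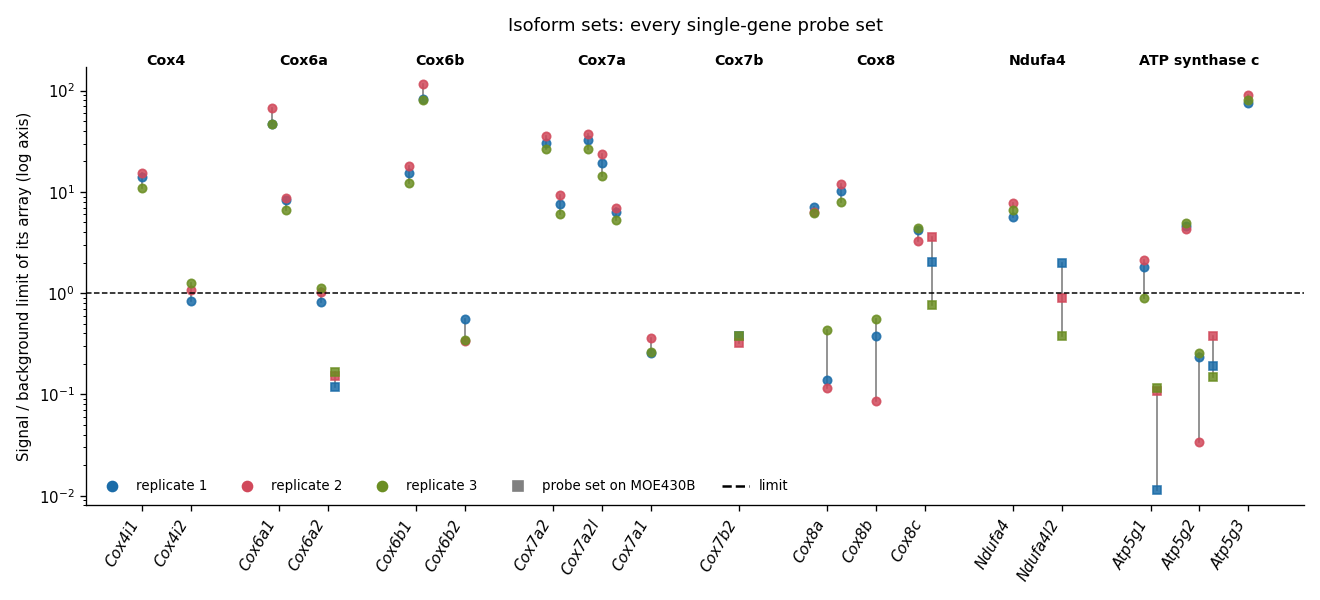
Signal divided by the limit of its array (log axis) for every single-gene probe set of the isoform sets, with 1 point per array, a line joining the arrays of a probe set, and squares for MOE430B. Cox6a1, Cox7a2 and Cox4i1 lie above the dashed limit throughout and 1 set of Cox8a does not, whereas Cox7a1, Cox8b and Cox6b2 lie below it and Cox6a2, Cox4i2 and Ndufa4l2 straddle it.

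The other members of complex IV have no listed tissue form. Cox5b, a subunit of the matrix side that binds zinc, gave 45730, 52701 and 40320 by its leading set. Cox5a and Cox6c were also above the limit by each of their probe sets. Cox7c, a small membrane subunit, was under the limit by both of its probe sets: the leading set gave 62, 53 and 72, at most 0.0871 of the limit, and the other 14, 70 and 40.

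In complex V, the catalytic head was above the limit with each of its subunits. Its alpha subunit Atp5a1 gave 18813, 20475 and 20670, and its beta subunit Atp5b, which holds the catalytic sites, gave 5109, 4796 and 4531. The central stalk subunits gave 11288, 10789 and 10797 (gamma, Atp5c1), 18512, 18735 and 15086 (delta, Atp5d) and 2157, 3288 and 2204 (epsilon, Atp5e). Of these 5 genes the arrays of Atp5c1 differed least (10958 ± 286, SD, n = 3), and replicate 2 of Atp5e stood above the other arrays.

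The c subunit, whose ring turns as protons pass, is encoded by 3 genes for the same mature protein. Atp5g3 gave 61260, 71643 and 65841, at least 74.8 times the limit, and Atp5g2 gave 3750, 3401 and 4030, at least 4.34 times. Atp5g1 gave 1487, 1681 and 737, above the limit in replicates 1 and 2 and under it in replicate 3, and its MOE430B set gave 37, 318 and 291, under the limit on all arrays. Of the remaining members, the peripheral stalk genes Atp5pb, Atp5h, Atp5j and Atp5o, whose proteins hold the head still, were above the limit. The lowest arrays of their leading sets ran from 4.71 (Atp5o) to 31.1 times it (Atp5h), and the other Atp5o set was under it. Atp5j2, Atp5k, Atp5md and Atp5mpl of the membrane part were also above, with lowest arrays of the leading sets from 3.62 (Atp5md) to 15.9 times the limit (Atp5j2). Atp5l, subunit g of the membrane part, gave 961, 608 and 1226, and was under the limit in replicate 2.

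Probe sets of 1 gene often disagreed. Of 43 members with more than 1 probe set on MOE430A, 26 had all sets above the limit, 2 had none (Uqcr10 and Cox7c) and 15 were mixed, 34.9% beside 44.1% of 4956 such genes on the chip. Cox5b had 5 sets above the limit and 1 under it on all arrays, at 190, 263 and 371. Ndufa12 had 3 above and 1 under, and Ndufb9, Cox8a and Atp5a1 had 2 above and 1 not above. A set under the limit has no measured level, so no fold is given between the sets of a gene. The class of probe set moved with these differences. Affymetrix IDs ending in _a_at mark sets shared by transcripts of 1 gene, and those ending in _s_at or _x_at sets that match several transcripts or have probes in common with other sequences. Where a member had both such suffixed sets and plain _at sets, the highest suffixed set was above the highest plain set in 30 of 33 genes, 90.9% beside 55.8% of 2585 genes. In 2 of the 33, Uqcr10 and Cox7c, neither set was above the limit.

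The same held for the calls. On MOE430A, 69 of 78 suffixed member sets were above the limit, 88.5% beside 44.8% of all suffixed sets, and 46 of 69 plain member sets, 66.7% beside 30.7%. Of the 68 genes above the limit, 22 were so by suffixed sets alone, among them Cox4i1, Cox6a1, Ndufs1, Sdhc, Uqcrc1 and Atp5c1. Many of the 22 had no plain set, so they could pass in no other way. Of those named, only Atp5c1 had a plain set, which was under the limit. A plain set was at hand for 65 of the 81 members, and 46 of these passed by it. The share over all genes was not counted. Near-identical copies of these genes could add to a suffixed set, and that was not tested.

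**Figure D3:**
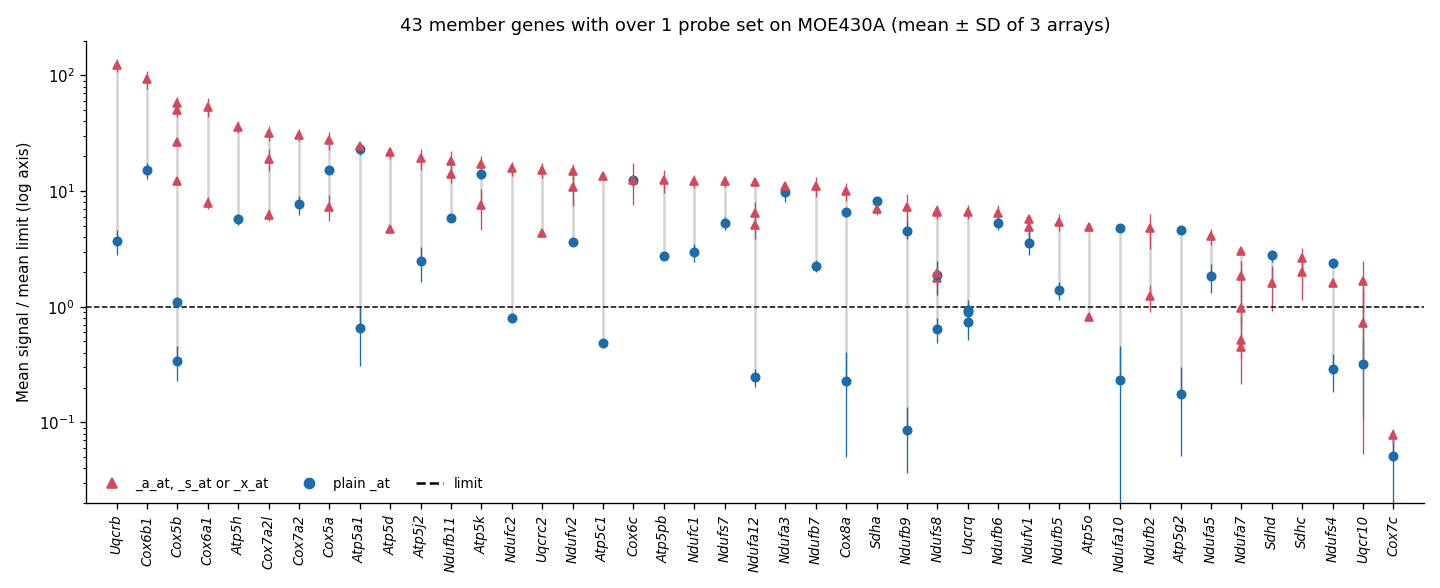
Mean signal over the mean limit (log axis) of each MOE430A probe set of the 43 members with more than 1, with bars of 1 SD over 3 arrays; red triangles are suffixed sets, blue circles plain ones, and the dashed line is the limit. Suffixed sets lie above the plain sets in most genes, 1 set of Cox5b and both sets of Cox7c lie under the line, and points under it are not measured levels.

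The 3 arrays of MOE430A differed little for single members but in a common direction. The median coefficient of variation over the 115 member sets above the limit was 12.7%, beside 13.0% over all sets above it. Replicate 2 was the highest array in 71 of the 115, 61.7% beside 32.6% of all sets above the limit, and replicate 3 the lowest in 67, 58.3% beside 31.9%. The shifts were small: the median deviation of the members from their own mean was 0.13 in replicate 2 and -0.11 in replicate 3 on the log2 scale, beside -0.02 and 0.00 for all sets. With each array centred on its median, which moved the median of all sets in replicate 2 to 0.07, the members were highest there in 90 of 115, 78.3% beside 49.3% of all sets. With quantile normalization they were highest there in 62, 53.9% beside 33.6%. The counts of highest and lowest arrays, here and by complex, class and signal, and these settings were added after the data were seen. The replicates and the direction were thus picked from the same values, and the counts are a description. MOE430B did not show the same order: its member sets above the limit, of Ndufc2, Uqcrh and Atp5j2, were each highest in replicate 1. The share of all sets was not counted on that chip, so the direction seen on MOE430A is given for that chip alone.

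By complex, replicate 2 was highest on MOE430A in 33 of 54 sets of I, 4 of 7 of II and 5 of 9 of III. In complex IV it was highest in 18 of 23 and in V in 11 of 22, beside 32.6% of all sets above the limit. These counts were not matched for class or signal, and those of II and III rest on few sets. The share highest in replicate 2 moved with the class and the signal of the probe sets. Among suffixed sets, replicate 2 was highest in 53 of 69 members, 76.8% beside 44.5%, and among plain sets in 18 of 46, 39.1% beside 24.7%. In sets over 20 times the limit it was highest in 86.7% of members and 67.5% of all sets, and in sets under 2 times the limit in 27.3% and 23.7%. Within suffixed sets the members' share beside that of all sets was 33.3% beside 28.9% under 2 times the limit, 66.7% beside 37.4% at 2 to 5 times, 80% beside 47.2% at 5 to 10 times, 82.6% beside 56.8% at 10 to 20 times and 92.3% beside 73.5% over 20 times. Within plain sets it was 20% beside 21.6%, 45% beside 25.6%, 38.5% beside 24.6%, 33.3% beside 29.2% and 50% beside 47.4% in the same order, over 2 to 20 member sets each. The plain shares lay nearest each other under 2 and over 10 times the limit. Member sets there numbered 5 under 2 times, 6 at 10 to 20 times and 2 over 20 times, too few to tell whether the shares differ. The part of signal and probe set class in the members' shift was not tested further.

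**Figure D4:**
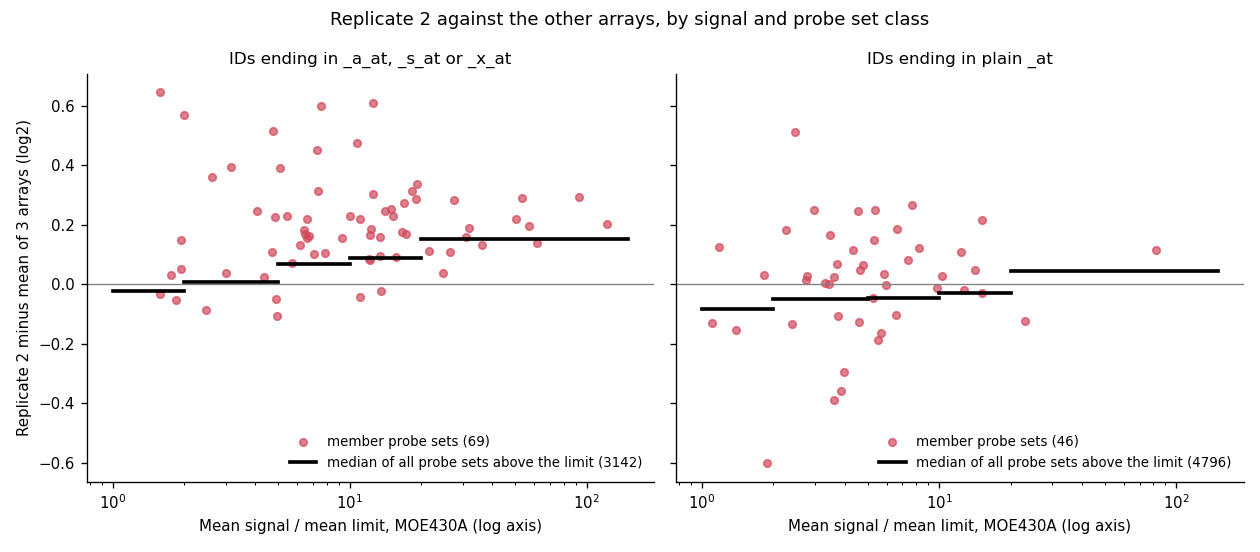
Deviation of replicate 2 from the mean of 3 arrays (log2) against mean signal over mean limit (log axis) for member probe sets above the limit on MOE430A, 69 suffixed on the left and 46 plain on the right; black lines are medians of all sets above the limit within a signal range. Suffixed member sets lie mostly above 0, and the lines rise with signal.

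Replicates were also tested against the disagreement of the chips, for genes above the mean limit on both. Each replicate is 1 number on 2 chips with different probe sets, so such a p measures disagreement between probe sets and chips and not the spread between samples. Of 619 genes, 7 passed, 1.13% (limma moderated F-test with Benjamini-Hochberg adjustment, 64 at an unadjusted p under 0.05), and 4 members were among those tested. Cox8c passed, with a log2 difference of 0.98 ± 0.27 (SE) between replicate 2 and the lower replicate 3 (limma, adjusted p = 0.0327), although its values on the chips, given above, run in opposite directions for replicate 2, and an ordinary F-test did not call it (adjusted p = 0.891, limma's fit without moderation). The call therefore does not show that Cox8c differed between replicates. Atp5j2, Ndufc2 and Uqcrh did not pass (limma, adjusted p = 0.652, 0.770 and 0.770). The Cox8c call was lost with median centring (limma, adjusted p = 0.0965), with quantile normalization (0.782) and without replicate 2 (0.512) or 3 (0.936), and over all its alternatives the adjusted p ran from 0.0227 to 0.942. The chips themselves were compared on the 100 probe sets they share, none of which is a member: 99 passed, 99% (limma, MOE430B higher in 100 of 100, with a median log2 difference of 1.86).

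Genes around the subunits were read in the same way. Among electron carriers and subunits outside the rule, 5 of 7 were above the limit, including cytochrome c1 (Cyc1), with 8741, 9462 and 8230, and cytochrome c (Cycs), with 17465, 24639 and 14104. The testis form of cytochrome c, Cyct, gave 262, 59 and 126 and was under the limit, as was Etfdh. A further list held ADP/ATP and phosphate carriers, porins, mitochondrial creatine kinases and uncoupling proteins. Of its 12 genes 11 were measured, all but Ucp2, and 6 of the 11 were above the limit. These were the phosphate carrier Slc25a3, the ADP/ATP carriers Slc25a4 and Slc25a5, and the porins Vdac1, Vdac2 and Vdac3. The creatine kinases Ckmt1 and Ckmt2, the uncoupling proteins Ucp1 and Ucp3 and the testis carrier Slc25a31 were not above it. Citrate cycle genes came to 11 of 12, all but Dld.

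Assembly factors, which build the complexes and are not part of them, came to 17 of 39, 43.6%, near the 36.2% of all genes and the 45.5% of those with a MOE430A probe set, with a median log2 signal of 0.06 over the limit. Cox17, a copper chaperone for complex IV, gave 10452, 14367 and 12218, whereas the copper chaperones Sco1 and Sco2 were not above the limit. Among regulators of these genes 6 of 14 were above, 42.9%, also near the shares of all genes (36.2%) and of those with a MOE430A probe set (45.5%). The coactivators Ppargc1a, with 450, 417 and 318, and Ppargc1b, with 164, 164 and 228, were under the limit on all arrays. The factor Nrf1 gave 1113, 765 and 837 and was under the limit in replicate 2 alone. Yy1 gave 6424, 6323 and 6527, and Gabpa, Esrra, Tfam, Polrmt and Twnk were also above it.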

How the data were processed

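Total RNA of 3 replicates was hybridised to MOE430A and MOE430B. The deposited signal intensities are linear and were made by the authors with MAS5, per the submitters' processing notes, which name no version. Leaving out 2% of probe sets at either end, the mean signal came to 1500 to 1501 per array, so each array was scaled by itself. Scanner set-up files with text on chip lots (other) were also deposited, and were used to count lots.

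Gene names came from the platform annotation, updated through Entrez numbers to GRCm38.p6. All 164 member probe sets were updated. Probe sets with several symbols or none were left out: 691 and 1606 of 22690 on MOE430A, 245 and 7656 of 22575 on MOE430B.

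The limit was the 95th percentile of 151 reference probe sets on MOE430A and 44 on MOE430B (genes of testis kinases, placental prolactins, defensins, sperm nuclear proteins, gamma crystallins, keratin-associated proteins, and receptors for odours, pheromones and taste). Probe sets had to exceed it on all 3 arrays, and genes needed 1 such probe set. Having 3 arrays per chip limits the precision.

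Replicates and chips were tested by limma (3.58.1, R 4.3.3) on log2 of the deposited signal (log2 scale), with an intensity trend and Benjamini-Hochberg adjustment over all features tested at 0.05. The script was tested on simulated data. The rest was done in Python 3.11.15 with scipy 1.17.1, pandas 2.3.3, numpy 2.4.6 and, for figures, matplotlib 3.10.9. Alternatives changed the limit, the number of arrays required, the probe sets used, the scaling, the variance model and the replicates.

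Values on each array are printed for complex II, the core subunits of complex I, Uqcrc1, Uqcrc2 and Uqcrfs1, the head and stalk of complex V, the isoform sets and c-subunit genes, every member not above the limit, the members whose leading probe set lay farthest above or below its limit in a complex (no rank of abundance), and members at an unadjusted p under 0.05 between replicates. Other genes with values were chosen after these were seen. Members and lists were chosen with earlier results of these data known.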

Additional observations from a re-analysis of the deposited data

Results flagged for a closer look

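Probe sets annotated to several genes were left out of the counts, and 9 of them name an oxidative phosphorylation subunit beside another gene or a pseudogene. Of these, 6 were above the limit on all 3 arrays, a signal in data that the comparisons did not use. On MOE430A, sets shared by Ndufb4, Ndufb4b and Ndufb4c gave means of 5733 and 2137, whereas the single-gene Ndufb4 set on MOE430B was under its limit. The set of Ndufs6 and Ndufs6b gave 8923 on MOE430A, and that of Ndufs5 and its pseudogene Ndufs5-ps gave 1935. Sets of Ndufa11 and Ndufa11b gave 1689 on MOE430A and 3686 on MOE430B. Such a set cannot tell its genes apart. Sets shared by Ndufa13 and Yjefn3, on both chips, and by Ndufb2 and Adck2 were not above the limit.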

How the results depend on the processing

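Of 97 recomputed values, 83 stayed within 1.5 times the value reported. This is a wide margin: counts close to the number tested could not rise that far, and a fall from 68 to 46 genes lay within it. Without suffixed probe sets, 46 member sets of 69 passed on MOE430A and 1 of 12 on MOE430B. By gene, 21 of 28 passed in complex I, 4 of 6 in complex III and 46 of 65 in all. Members without a plain set dropped out, fewer sets were tested, and a smaller share of the sets passed (66.7% on MOE430A). The cause of the lower share was not tested. With the array median as limit 7 sets passed on MOE430B. Under the other settings 67 to 75 genes passed, and Ndufs5 was the one gene lost, under the 99th percentile and with receptors alone as reference. Atp5g1, Atp5l, Cox4i2, Cox6a2 and Uqcr10 were gained when 2 of 3 arrays sufficed. Between replicates, limma called 0 members with median centring, quantile normalization, no intensity trend, an ordinary F-test, no filter on low values (12 tested) or no suffixed sets (1 tested), where Cox8c had no value, and 0 to 1 when 1 replicate was left out. The cause was not tested. The chip comparison called 0 sets once arrays were centred on the shared sets (7 at an unadjusted p under 0.05), which removes the chips' difference by construction, and 97 to 98 with 1 replicate left out. With a replicate block it called 99, as without, and no other result has a paired form. Over the shared probe sets, the deviations of same-numbered arrays from the mean of their chip correlated at -0.01, 0.44 and 0.10 for replicates 1, 2 and 3. The chip comparison therefore has no block, whereas the replicate test took same-numbered arrays as 1 replicate by their titles. Low signals near the limit, on MOE430B above all, cannot be told from background.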
